A study of Mus musculus with 18 samples.

Results

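The comparison is between tumours of mice fed St. John's wort (SJW) in the diet and tumours of mice that ate a control diet. All of these mice were male C57BL/6 animals injected with azoxymethane (AOM), a carcinogen that induces intestinal tumours in rodents. Of the 18 arrays of the study, 6 entered the comparison: 3 whose titles give an SJW tumour and 3 whose titles give a control-diet tumour. The other 12 arrays hold non-tumour tissue of SJW or control-diet mice after AOM or after saline, with 3 arrays in each group, and entered the fit only through its estimate of the spread. Each array set the RNA of 1 sample, in red (Cy5), against a commercial pool of Swiss Webster RNA, in green (Cy3). The pool held embryo and 9 adult organs, intestine not among them, and the dyes were not swapped. Values are log2 ratios of red over green, so a positive ratio means more transcript in the tumour than in the pool. Differences are SJW minus control tumours on the log2 scale, and a negative difference is a lower level in SJW tumours. The series design names the arrays biological replicates, and the labels do not say whether a tumour and a non-tumour sample came from the same mouse.

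SJW is a medicinal herb whose constituent hyperforin activates the pregnane X receptor (PXR), a nuclear receptor of foreign compounds, as is known in humans. PXR drives genes of drug metabolism and is known to counter NF-kB, the transcription factor behind many cytokine and chemokine genes. AOM tumours grow from epithelium in which beta-catenin is stabilised, and they are known to attract inflammatory cells through chemokines, to make reactive oxygen through NADPH oxidases and to break down matrix through metalloproteases.

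The tissue was checked against marker genes. Markers of intestinal epithelium averaged a log2 ratio of 3.01 to 3.46 on SJW tumour arrays and 3.02 to 3.92 on control tumour arrays, while the 7 measured liver markers averaged -1.22 to -0.88 on SJW tumour arrays and -1.68 to -1.18 on control tumour arrays. The labels call the tissue small intestine and the extraction protocol names liver. Fabp6, an ileal bile acid binding protein, was well above background on 1 of 3 SJW and 1 of 3 control tumour arrays. Car1, a carbonic anhydrase of colon epithelium, had log2 ratios of 1.91, 4.31 and 3.99 in SJW tumours, against 4.59, 2.91 and 5.46 in control tumours. Hoxd13, a patterning gene of the hindgut, had log2 ratios of 0.38, 2.60 and 2.55 in SJW tumours, against 3.64, 1.47 and 4.17 in control tumours. Both genes varied by more within each diet than between the diet means, and the groups overlapped. They are high members of a list of 15 measured colonocyte markers. That list averaged -0.59 to 0.76 on SJW and -0.10 to 0.27 on control tumour arrays. The 9 measured ileum markers averaged -1.02 to -0.64 on SJW and -0.97 to -0.76 on control arrays. Paneth cell products averaged 1.42 to 2.72 on SJW and 2.75 to 3.12 on control arrays. The part of the gut was not tested.

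The 6 tumour arrays lay on 2 slides: replicates 1 and 2 of both diets on slide 1, and replicate 3 of both diets on slide 2. Their median red intensity was 336.5 to 457.5 on SJW arrays and 359 to 786.5 on control arrays. Control tumour replicate 3 stood apart in brightness, with a median of 786.5 in red and 755 in green, so some values are given without it too. A value with no such note may also rest on it in part. Correlations of log2 ratios were 0.922 to 0.958 within SJW tumours, 0.93 to 0.955 within control tumours and 0.914 to 0.958 between them. The median SD of a gene was 0.176 in SJW tumours and 0.208 in control tumours. With 3 arrays a group, the precision is limited.

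No gene passed the test. Of 26073 genes tested in limma, 0 (0%) had a Benjamini-Hochberg adjusted p under 0.05. Without single tumour arrays there were 0 to 8 calls. Without control tumour replicate 1 the 8 were Cfb, Il6, Top2a and an unnamed probe, lower in SJW tumours, and Ddah2, Fndc5, Glul and Cdc42ep3, higher in SJW tumours. Without SJW tumour replicate 3 there were 6, all lower, with Cxcl3, Cfb and Defa22 among them, and without control tumour replicate 2 there were 3, Cxcl3, Nox1 and Bcl2l15. At an unadjusted p under 0.05 there were 797 genes lower in SJW tumours (3.06%) and 768 higher (2.95%). In 1321 genes (5.07%) all 3 SJW arrays lay below all 3 control arrays, and in 1409 (5.4%) all 3 lay above. The median difference over all genes was 0.01 and the median size 0.135, with 54 genes lower and 55 higher by at least 1. The leading genes below are the 12 lower and the 12 higher with the smallest p, so that they were chosen for this contrast, their groups do not overlap by choice, and their values are a description. All 24 had the same sign on both slides, which follows from groups that do not overlap and adds nothing to it.

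Promoters of 3 genes are shown because Cxcl3 and Mmp13 are leading genes and Il6 is an inflammatory gene described with them, and because each holds a match to a motif searched, so that they were chosen after the matches were seen. They are the 250 bases before the annotated start in RefSeq (GRCm38.p6), on the plus strand, and capitals mark matches to 2 motifs searched on both strands. The motifs were GGANTTTCC, a form of the NF-kB site, found in 1.07% of 32851 promoters of the same length, and TGANTCA, a form of the AP-1 site with any base in the middle, found in 6.75%. Cxcl3 is from chr5:90785851-90786100, Il6 from chr5:30012864-30013113 and Mmp13 from chr9:7272264-7272513.
Cxcl3: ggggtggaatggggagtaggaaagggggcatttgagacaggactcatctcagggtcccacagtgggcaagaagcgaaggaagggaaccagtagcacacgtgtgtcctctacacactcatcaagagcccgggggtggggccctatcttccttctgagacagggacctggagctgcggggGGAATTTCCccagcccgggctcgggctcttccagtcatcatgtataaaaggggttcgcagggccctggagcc
Il6: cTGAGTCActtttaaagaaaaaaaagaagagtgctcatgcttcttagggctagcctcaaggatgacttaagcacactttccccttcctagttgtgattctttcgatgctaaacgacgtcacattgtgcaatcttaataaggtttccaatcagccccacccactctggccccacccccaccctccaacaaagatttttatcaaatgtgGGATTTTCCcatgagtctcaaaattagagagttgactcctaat
Mmp13: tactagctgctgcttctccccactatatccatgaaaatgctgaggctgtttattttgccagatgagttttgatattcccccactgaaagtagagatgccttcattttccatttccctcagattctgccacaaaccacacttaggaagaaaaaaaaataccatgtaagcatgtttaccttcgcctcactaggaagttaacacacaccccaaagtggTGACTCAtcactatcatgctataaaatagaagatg
The NF-kB motif began 72 bases before the start of Cxcl3 and 43 before that of Il6. The AP-1 motif, which is the same on either strand and does not overlap the NF-kB match, began 35 bases before the start of Mmp13 and 249 before that of Il6. Of the 24 leading genes and Il6, 20 had a promoter in the table, and the other leading genes with the AP-1 motif were Kcne3, Mcu and Cbarp. In Kcne3 the match read TGAATCA, and Kcne3 and Cbarp each had another listed promoter with neither motif. Cxcl3 was the only leading gene in the table with the NF-kB motif, and the remaining ones, Nox1, Noxo1, C5ar1 and Bcl2l15 among them, held neither motif in this window. A match describes these letters only and shows no binding.

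The leading genes that were lower in SJW tumours include signals and receptors of innate immunity. Cxcl3, a chemokine that draws neutrophils through the receptor Cxcr2, had log2 ratios of 0.98, 0.62 and 1.38 in SJW tumours, against 2.64, 2.04 and 2.30 in control tumours. Each SJW array lay below each control array. The difference was -1.33 ± 0.18 (SE, n = 3 arrays each, limma adjusted p = 0.0553), a 2.52-fold lower ratio with a 95% interval of -1.72 to -0.94. Without single tumour arrays it ranged over -1.53 to -1.15. The SD of Cxcl3 was 0.38 in SJW and 0.30 in control tumours. In the non-tumour groups, where its probe was not well above background, the SD was 0.07 to 0.21. The SE, the interval and the p come from the spread pooled over all groups, and so rest in part on arrays near background. Over all alternative settings the limma adjusted p of Cxcl3 ranged over 0.0100 to 1, and it passed the threshold under 5 of 18. Because the samples are whole tissue, fewer cells of a type and less RNA per cell cannot be told apart.

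Cfb, complement factor B, the protease of the alternative complement pathway, had log2 ratios of -2.52, -2.11 and -1.84 in SJW tumours, against -1.16, -0.57 and -1.19 in control tumours. The difference was -1.18 ± 0.18 (SE, n = 3 arrays each, limma adjusted p = 0.0877), and it was -1.45 on slide 1 and -0.64 on slide 2. The level in SJW tumours was thus below the pool by more than in control tumours on either slide. C5ar1, the receptor of the complement fragment C5a on myeloid cells, had log2 ratios of 0.42, 0.18 and 0.43 in SJW tumours, against 1.13, 0.77 and 0.96 in control tumours. Its difference was -0.61 ± 0.12 (SE, n = 3 arrays each, limma adjusted p = 0.309), and it was -0.31 in the red channel alone.

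A catalytic and an organising part of the colonic NADPH oxidase were among the leading genes. Nox1, the catalytic subunit that makes superoxide in intestinal epithelium, had log2 ratios of 1.11, 0.77 and 1.05 in SJW tumours, against 2.45, 1.80 and 3.13 in control tumours. The SJW arrays lay close together and the control arrays were spread out, with SDs of 0.18 in SJW tumours and 0.67 in control tumours. The difference was -1.48 ± 0.28 (SE, n = 3 arrays each, limma adjusted p = 0.309), and -1.15 without control tumour replicate 3. Noxo1, which organises the Nox1 complex at the membrane, had log2 ratios of 0.53, 0.98 and 0.94 in SJW tumours, against 1.82, 1.67 and 2.08 in control tumours. Its difference was -1.04 ± 0.16 (SE, n = 3 arrays each, limma adjusted p = 0.0877), -0.99 on slide 1 and -1.14 on slide 2.

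Mmp13, a collagenase that cuts fibrillar collagen, was the most different of the 24 leading genes. Its log2 ratios were 3.05, 2.44 and 3.25 in SJW tumours, against 4.34, 4.43 and 4.80 in control tumours. Every tumour of both diets lay far above the pool, and the SJW tumours lay below the control tumours by a mean of -1.61 ± 0.33 (SE, n = 3 arrays each, limma adjusted p = 0.337). This is a 3.04-fold lower ratio, and it was -1.63 on slide 1 and -1.55 on slide 2.

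The other 6 leading genes that were lower in SJW tumours have unlike roles. Ccnb1ip1, a ubiquitin ligase known from meiotic recombination, had log2 ratios of -0.60, -0.88 and -1.01 in SJW tumours, against 0.15, 0.95 and 0.39 in control tumours, a difference of -1.33 ± 0.24. Bcl2l15, a member of the Bcl-2 family of cell death regulators, had log2 ratios of -0.54, -0.64 and 0.19 in SJW tumours, against 1.29, 0.25 and 1.44 in control tumours, a difference of -1.32 ± 0.25. In Bcl2l15 the groups nearly touched, since SJW replicate 3 and control replicate 2 differed by little. Kcne3, a potassium channel subunit that supports chloride secretion in the gut, had log2 ratios of -1.05, -1.15 and -0.37 in SJW tumours, against -0.19, 0.49 and 0.30 in control tumours, a difference of -1.06 ± 0.23. Mcu, the pore of the mitochondrial calcium uniporter, differed by -0.82 ± 0.19. Tefm, which helps elongate mitochondrial transcripts, differed by -0.72 ± 0.14, and Exph5, an effector of Rab27 in vesicle traffic, by -0.67 ± 0.15. The limma adjusted p-values of the 12 leading genes on the lower side ran up to 0.491, so none is called.

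Among the 12 leading genes that were higher in SJW tumours, 3 had a difference above 1. Dner, a Notch-related membrane protein known from neurons, had log2 ratios of -2.15, -0.96 and -1.79 in SJW tumours, against -2.72, -3.50 and -2.92 in control tumours. Fndc5, the precursor of the muscle hormone irisin, had log2 ratios of -1.34, -1.12 and -0.78 in SJW tumours, against -1.69, -2.37 and -3.00 in control tumours. Both lay below the pool in every tumour, and less so in SJW tumours, with differences of 1.41 ± 0.33 and 1.27 ± 0.26. Fndc5 differed by 0.80 on slide 1 and 2.22 on slide 2, and by 0.95 without control tumour replicate 3. Shisa2, which holds back Wnt and Fgf receptors inside the cell, had log2 ratios of 2.66, 1.46 and 2.12 in SJW tumours, against 0.31, 1.08 and 1.22 in control tumours, a difference of 1.21 ± 0.26.

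Ddah2, of the enzyme family that breaks down methylated arginine, had log2 ratios of 0.81, 0.81 and 0.96 in SJW tumours, against 0.40, 0.11 and -0.29 in control tumours. Its difference was 0.79 ± 0.15, and 0.61 without control tumour replicate 3. Tsc22d1, a leucine zipper protein induced by TGF-beta, had log2 ratios of -0.30, -0.38 and -0.59 in SJW tumours, against -0.96, -1.44 and -1.62 in control tumours, a difference of 0.92 ± 0.18. The other 7 were the RNA-binding proteins Rbm20 and Rbms3, the calcium sensor Ncald, the myosin Myo1e, the mitochondrial membrane protein Armcx3, the calcium channel regulator Cbarp, and Farp1, with differences of 0.57 to 0.73. For Myo1e only 1 of 3 probes had this sign, with probe differences of -0.11 to 0.67, and the value of Ncald was 0.21 in the deposited value table. The limma adjusted p-values of the 12 leading genes on the higher side were 0.309 to 0.493.

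**Figure D1:**
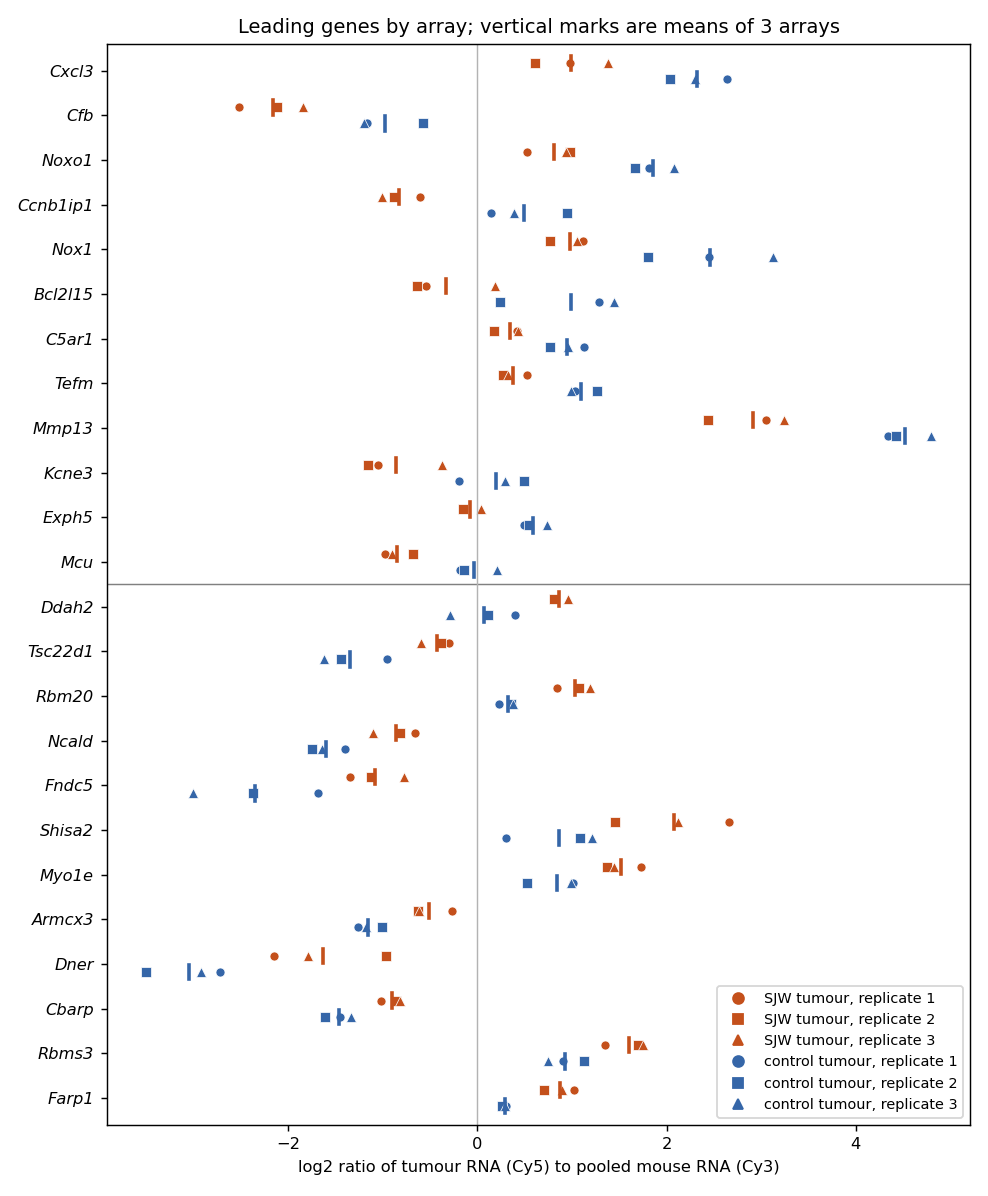
Log2 ratio of tumour RNA to pooled mouse RNA (x axis) for the 24 leading genes (rows), with each SJW tumour array above the control tumour arrays of the same gene and vertical marks for the means of 3 arrays. In the upper 12 genes all SJW arrays lie left of all control arrays, and in the lower 12 all lie right of them, which is how the genes were chosen.

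Targets of NF-kB and mediators of inflammation were the pathway list with the most members lower at an unadjusted p. Of 34 listed genes 29 were measured, and 22 of these were lower in SJW tumours, with a median difference of -0.27 against 0.01 over all genes. At an unadjusted p under 0.05, 11 (37.9%) were lower and 0 higher, against 3.06% and 2.95% of all genes, and none passed after adjustment in limma. Without SJW tumour replicate 1 the 11 became 5, and without control tumour replicate 3 they became 10, while the median was -0.57 with the scanner software's ratio. The 11 were the cytokines Il6, Il1b, Tnf and Il11, the chemokines Ccl20, Cxcl1, Cxcl2 and Cxcl5, the adhesion molecule Icam1, the nitric oxide synthase Nos2 and the iron-binding defence protein Lcn2. The list mean was 0.42, 0.59 and 0.89 on SJW arrays and 1.17, 1.01 and 1.05 on control arrays, so that the groups did not overlap. The list median was -0.42 on slide 1 and -0.11 on slide 2. In non-tumour tissue 20 of the 29 genes were lower after AOM, with a median of -0.12, and 22 of the 29 after saline, with a median of -0.11. Members inside the pathway lay near 0, with Nfkbia at -0.07, Nfkb2 at 0.06, Relb at 0.02 and Traf1 at 0.04.

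Il6, a cytokine that drives epithelial growth through Stat3, had log2 ratios of 0.65, 0.21 and 0.40 in SJW tumours, against 0.87, 1.27 and 1.48 in control tumours. It was well above background on 2 of 3 SJW and 3 of 3 control arrays, and the groups did not overlap. Its SD was 0.22 in SJW and 0.31 in control tumours. In the non-tumour groups, where its probe was not well above background, the SD was 0.03 to 0.09, and these groups enter the SE too. The difference was -0.79 ± 0.15 (SE, n = 3 arrays each, limma adjusted p = 0.304), and over the alternatives its value ran from -1.99 with the scanner software's ratio to -0.47 in the red channel alone. Ccl20, which attracts cells that carry the receptor Ccr6, had log2 ratios of 0.42, 0.34 and 0.61 in SJW tumours, against 1.93, 0.93 and 2.24 in control tumours, a difference of -1.24 ± 0.33. Its probe was well above background on 2 of 3 SJW and 3 of 3 control arrays. The difference was -2.75 with the scanner software's ratio and -0.97 without control tumour replicate 3. Nos2 had log2 ratios of 0.95, 1.49 and 0.94 in SJW tumours, against 1.94, 1.61 and 2.59 in control tumours, a difference of -0.91 ± 0.35. The Nos2 difference was -0.64 without control tumour replicate 3. Tnf differed by -0.70 ± 0.29, and by -0.35 without control tumour replicate 3. Ptgs2, the inducible cyclooxygenase, had log2 ratios of 1.09, 0.75 and 1.62 in SJW tumours, against 1.73, 1.84 and 1.72 in control tumours, a difference of -0.61 ± 0.34. Its SJW replicate 3 lay close to the control arrays.

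Several genes typical of neutrophils and of acute responses were lower in SJW tumours on slide 1 and had the opposite sign on slide 2. Lcn2 had log2 ratios of -3.42, -3.62 and -0.58 in SJW tumours, against -0.57, 0.01 and -1.80 in control tumours. Its difference of -1.76 ± 0.64 was made of -3.24 on slide 1 and 1.22 on slide 2. The SD of Lcn2 was 1.70 in SJW and 0.92 in control tumours, and the SE is pooled with the other groups. S100a8, a subunit of the neutrophil protein calprotectin, had log2 ratios of -1.82, -0.97 and 1.01 in SJW tumours, against 2.10, 1.81 and -0.21 in control tumours. SJW replicate 3 was high and control replicate 3 low in both genes, so the groups overlapped. Retnlg, a secreted protein of neutrophils, differed by -1.70 ± 0.51, with -2.78 on slide 1 and 0.46 on slide 2, and Il1b by -0.78 ± 0.35, with -1.51 on slide 1 and 0.69 on slide 2. Of 11 measured neutrophil markers 9 were lower, 3 of them (27.3%) at an unadjusted p under 0.05, with a median of -0.35. Their mean ratio was -0.48 to 0.35 on SJW arrays and 0.04 to 0.70 on control arrays, and all 11 were well above background on all 6. The count of 3 became 1 without control tumour replicate 1 and 5 without SJW tumour replicate 3. The part of neutrophil RNA in the inflammatory list was not tested. Cxcl3, Il6, Ccl20 and Nos2 had the same sign on both slides, as must genes whose groups do not overlap.

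**Figure D2:**
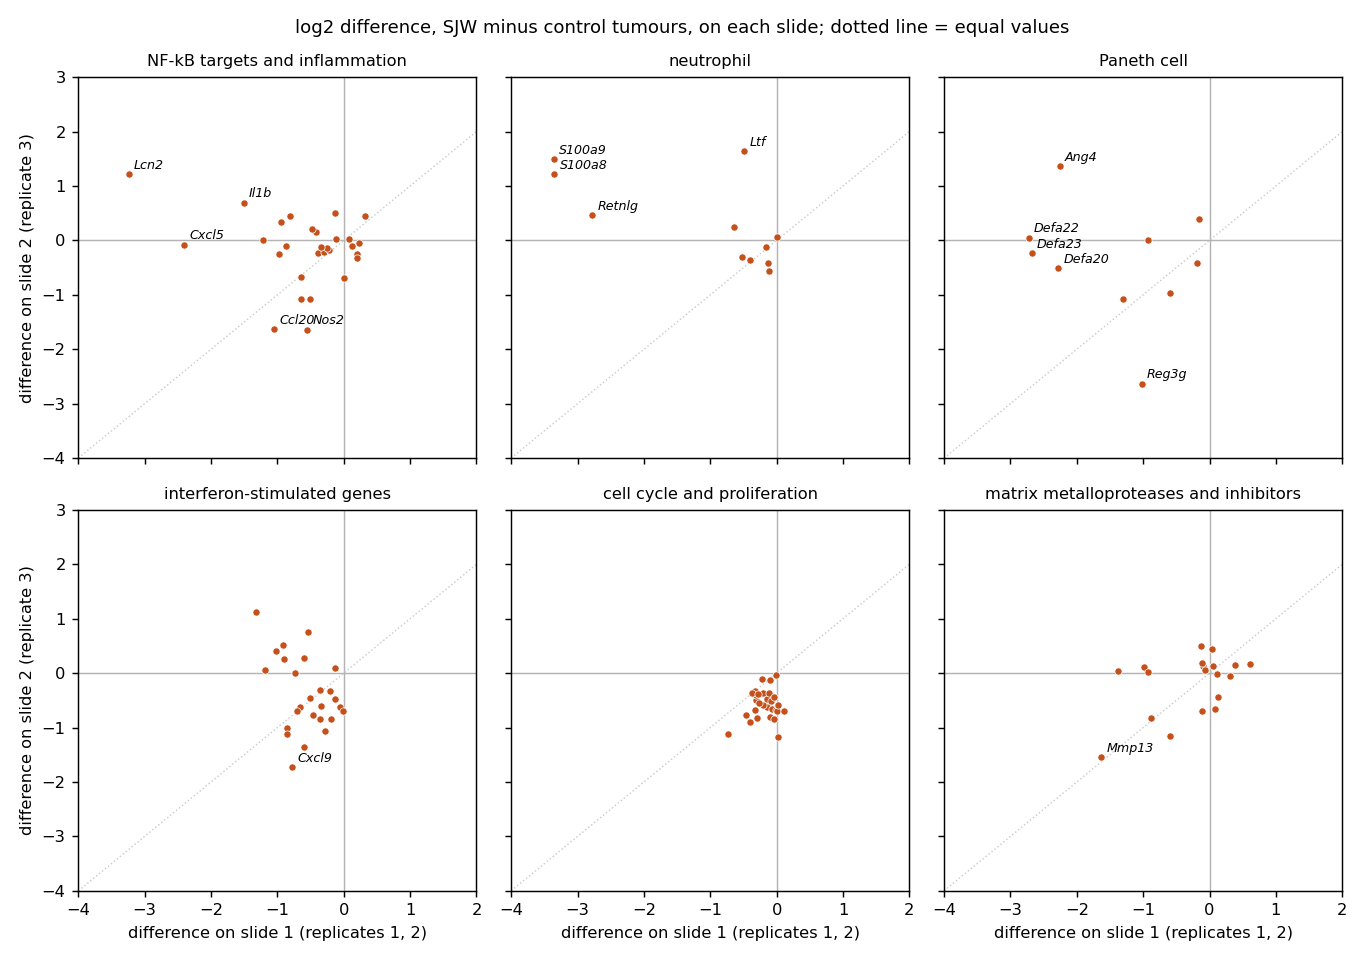
Log2 difference between SJW and control tumours on slide 1 (x axis, replicates 1 and 2) against slide 2 (y axis, replicate 3) for the members of 6 lists, with the dotted line at equal values. Lcn2, Il1b, S100a8, S100a9 and Retnlg lie left of 0 and above 0, while the cell cycle genes lie below 0 on slide 2 and mostly closer to 0 on slide 1.

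Of 19 measured matrix metalloproteases, plasminogen activators and inhibitors, 12 were lower in SJW tumours, 5 of them (26.3%) at an unadjusted p under 0.05, and the list median was -0.03. The count was 3 without SJW tumour replicate 2, and the median was 0.05 without SJW tumour replicate 1. The 5 were all proteases of the matrix. Beside Mmp13 they were Mmp12, the macrophage elastase, at -0.79 ± 0.23 (-0.11 with the scanner software's ratio and -0.52 without control tumour replicate 3), the stromelysins Mmp10 at -0.86 ± 0.27 and Mmp3 at -0.90 ± 0.31, and the neutrophil collagenase Mmp8 at -0.62 ± 0.22. Mmp10 had log2 ratios of 3.83, 3.48 and 4.50 in SJW tumours, against 4.39, 4.68 and 5.32 in control tumours, with SJW replicate 3 inside the control range. Mmp3 and Mmp8 were at 0.04 and 0.11 on slide 2. Mmp14, a membrane-bound protease, was higher at an unadjusted p, by 0.31 ± 0.13, and the inhibitors Timp1, Timp2 and Timp3 lay at -0.02, 0.17 and 0.19.

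All 26 measured interferon-stimulated genes were lower in SJW tumours, with a median difference of -0.50, but only 3 (11.5%) at an unadjusted p under 0.05. These were Cxcl9, a chemokine for T cells, at -1.10 ± 0.34, the immunoproteasome subunit Psmb8 at -0.65 ± 0.24 and the peptide transporter Tap1 at -0.57 ± 0.24. Cxcl9 had log2 ratios of 1.85, 0.74 and 1.07 in SJW tumours, against 2.15, 2.00 and 2.80 in control tumours. The list mean was 0.21, 0.18 and 0.66 on SJW arrays and 0.97, 0.55 and 1.05 on control arrays, so that SJW replicate 3 lay above control replicate 2. The median was -0.57 on slide 1 and -0.54 on slide 2, and ranged over -0.63 to -0.36 without single tumour arrays, with 22 to 26 genes lower. At an unadjusted p under 0.05 there was 1 gene without SJW tumour replicate 2, and in the red channel alone 25 of the 26 were lower. In non-tumour tissue the same median was 0.25 after AOM, with 6 of 26 genes lower, and -0.42 after saline, with 23 of 26 lower. The genes of such a list are not independent of each other, and its count is a description.

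All 29 measured cell cycle genes were lower in SJW tumours as well, with a median of -0.31, and 7 (24.1%) were so at an unadjusted p under 0.05. Top2a, the topoisomerase of dividing cells, had log2 ratios of 0.52, -0.17 and 0.23 in SJW tumours, against 0.50, 1.34 and 1.35 in control tumours, a difference of -0.87 ± 0.21 (SE, n = 3 arrays each, limma adjusted p = 0.524). SJW replicate 1 lay within the control range. Aurkb, a mitotic kinase, differed by -0.56 ± 0.17, the replication clamp Pcna by -0.33 ± 0.14 and the mitotic kinase Cdk1 by -0.57 ± 0.21. Mki67, the common proliferation marker, had log2 ratios of 1.39, 1.37 and 1.38 in SJW tumours, against 1.44, 1.35 and 2.06 in control tumours, so that its difference of -0.23 ± 0.21 rested on control replicate 3 and was -0.01 without it. The median of the list was -0.15 on slide 1, -0.58 on slide 2 and -0.21 without control tumour replicate 3, the brightest tumour array. Without that array 27 of the 29 were lower, and 2 were so at an unadjusted p under 0.05. Without SJW tumour replicate 1 there were 13 at that level and without SJW tumour replicate 2 there were 3, and in the red channel alone 26 of the 29 genes were lower. In non-tumour tissue 24 of the 29 were lower after AOM, with a median of -0.195, and 14 of the 29 after saline, with a median of 0.006. The genes of this list are not independent of each other either.

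**Figure D3:**
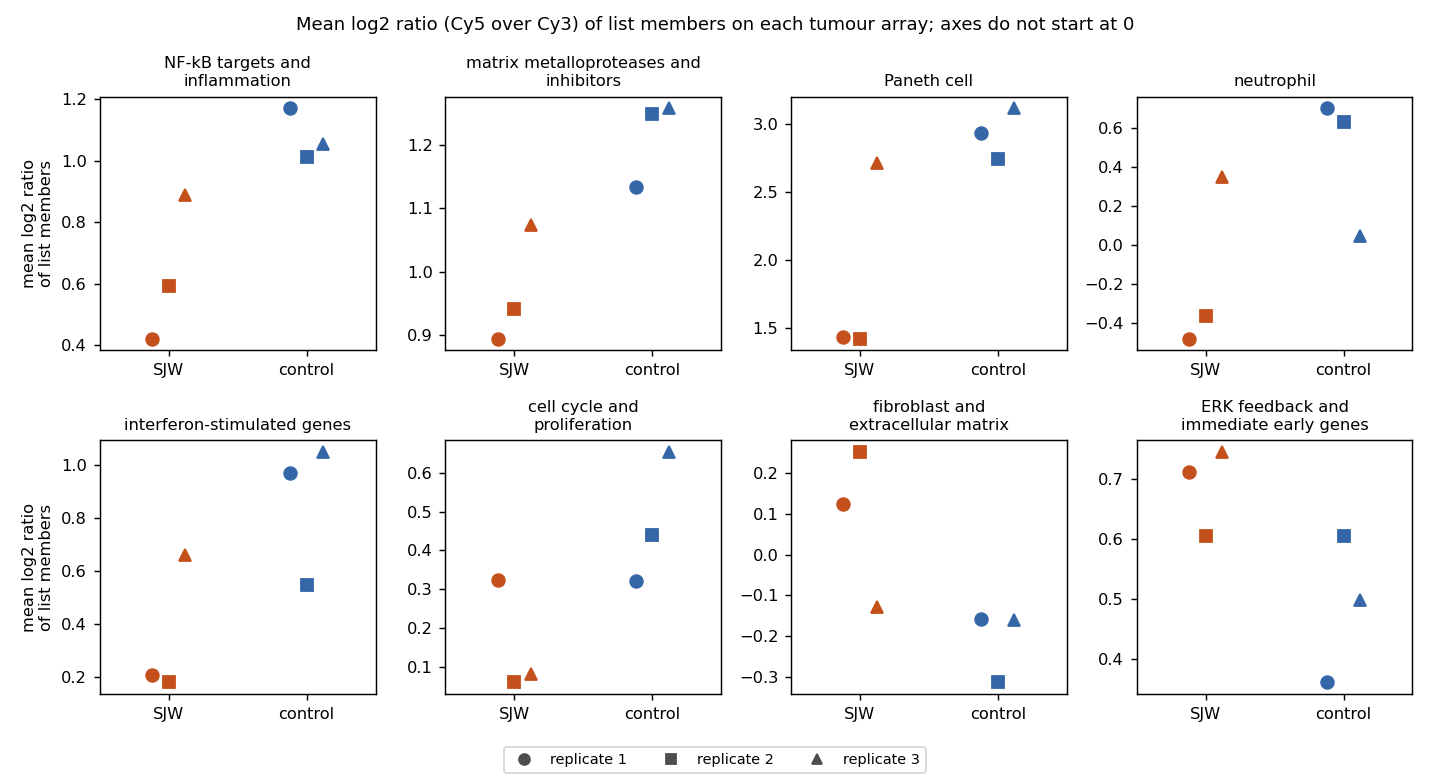
Mean log2 ratio of the members of 8 lists (panels) on each SJW tumour array and each control tumour array, with symbols for replicates. The inflammatory, metalloprotease and Paneth cell means of the SJW arrays lie below those of the control arrays, and the neutrophil, interferon and cell cycle means overlap.

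Paneth cell products had the lowest median of the 38 lists, at -1.14 over 10 measured genes, of which 9 were lower and 3 (30%) so at an unadjusted p under 0.05. Defa22, an alpha-defensin that Paneth cells secrete, had log2 ratios of 2.54, 2.44 and 4.65 in SJW tumours, against 5.46, 4.98 and 4.60 in control tumours, a difference of -1.80 ± 0.48. Defa20 differed by -1.69 ± 0.46 and Defa23 by -1.86 ± 0.57, and these defensins are close copies that probes may not tell apart. SJW replicates 1 and 2 were low while replicate 3 lay at the control level, and the list median was -1.16 on slide 1 and -0.33 on slide 2. Mmp7, the protease that activates defensins and a Wnt target, had log2 ratios of 4.11, 4.53 and 5.23 in SJW tumours, against 4.85, 5.63 and 5.21 in control tumours. Lyz1, the lysozyme of Paneth cells, differed by 0.03. In non-tumour tissue after AOM the median of the Paneth list was -1.18, with 9 of 10 genes lower.

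Targets of Wnt and beta-catenin lay on both sides of 0, with 11 of 27 lower, 0 lower and 2 higher at an unadjusted p under 0.05. The median was 0.04, and over the alternatives it ran from -0.21 without non-uniform spots to 0.29 in the red channel alone, with 0.19 without control tumour replicate 3. The tumour stem cell gene Lgr5 had log2 ratios of 4.07, 2.88 and 3.21 in SJW tumours, against 2.35, 3.09 and 3.28 in control tumours, a difference of 0.48 ± 0.36. Axin2, a feedback inhibitor of the pathway, had log2 ratios of 3.85, 3.02 and 3.35 in SJW tumours, against 2.86, 3.25 and 3.42 in control tumours, a difference of 0.23 ± 0.28. Both genes were high in all 6 tumours and the groups overlapped. Without SJW tumour replicate 1 the difference was 0.14 for Lgr5 and 0.01 for Axin2, and Lgr5 was at 0.92 in the red channel alone. Smoc2, a matrix protein of intestinal stem cells, differed by 0.86 ± 0.25, and Dkk3, a secreted Dickkopf-related protein, by 0.81 ± 0.32. Myc differed by -0.31 ± 0.27, and by 0.11 without control tumour replicate 3.

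Feedback and immediate early genes of ERK signalling had a median of 0.16, with 6 of 26 lower and 4 (15.4%) higher at an unadjusted p under 0.05. The 4 were the AP-1 subunits Fosb and Jun, the receptor signalling inhibitor Spry4 and Phlda1. Without SJW tumour replicate 1 the count of 4 was 1, and without replicate 3 of either diet it was 2. Fosb had log2 ratios of 0.60, 0.41 and 0.59 in SJW tumours, against -0.05, -0.10 and -0.36 in control tumours, a difference of 0.71 ± 0.23 (SE, n = 3 arrays each, limma adjusted p = 0.643). Its groups did not overlap. Jun had log2 ratios of 1.40, 0.99 and 1.57 in SJW tumours, against 0.95, 0.82 and 0.75 in control tumours, while Fos, a partner of Jun in AP-1, differed by 0.18 ± 0.37 and by -0.04 without SJW tumour replicate 2. Immediate early genes are known to respond to tissue handling as well, and the list of heat shock and handling genes had a median of 0.20, with 4 of 15 lower. At an unadjusted p under 0.05, Hspa1a was higher at 1.35 ± 0.56, and the chaperones Hspd1 at -0.34 and Hspa5 at -0.38 were lower. The median was -0.03 on slide 1, 0.32 on slide 2, 0.05 without SJW tumour replicate 1 and 0.02 in the red channel alone.

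Drug metabolism genes and other targets of PXR and of its relative CAR lay on both sides of 0, with a median of 0.05, 16 of 40 measured genes lower and 1 (2.5%) higher at an unadjusted p under 0.05. Cyp3a11, the main PXR target in mouse liver and gut, had log2 ratios of -1.18, -0.61 and -0.62 in SJW tumours, against -0.88, -0.76 and -0.94 in control tumours. Its difference was 0.05 ± 0.26 (SE, n = 3 arrays each, limma adjusted p = 0.9996), with a 95% interval of -0.49 to 0.60 and a sign that turned under the scanner software's ratio. The gene with a low unadjusted p was Gstm1, a glutathione transferase, at 0.48 ± 0.18. Among antioxidant genes under the factor NRF2, 4 of 20 were lower and 1 higher at an unadjusted p under 0.05, but 1 lower and 3 higher without control tumour replicate 3 and 2 lower without SJW tumour replicate 2. The cystine carrier Slc7a11 was at -0.90 ± 0.36, Gpx2, a glutathione peroxidase of the gut, at -0.65 ± 0.29, Gsr at -0.40 ± 0.13 and Pgd at -0.46 ± 0.17 (-0.21 without SJW tumour replicate 1), with haem oxygenase Hmox1 at 0.68 ± 0.26.

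Markers of other cell types in the tumour mostly had small positive medians. Fibroblast and matrix genes had a median of 0.24, with 3 of 20 lower, and their mean ratio was 0.12, 0.25 and -0.13 on SJW arrays, against -0.16, -0.31 and -0.16 on control arrays. Smooth muscle genes had a median of 0.24 with 2 of 15 lower, and endothelial genes 0.21 with 3 of 12 lower, with 0 of either at an unadjusted p under 0.05. On slide 2 the medians of the fibroblast, smooth muscle and endothelial lists were 0.02, 0.02 and 0.01. Without single tumour arrays the lowest values were 0.13 (SJW replicate 2), 0.12 (control replicate 3) and 0.11 (SJW replicate 2), and the endothelial median was 0.07 with the scanner software's ratio. Macrophage and monocyte markers had a median of 0.09, and T and NK cell markers 0.14. The macrophage median was -0.02 in the red channel alone, and that of T and NK cells -0.01 with the scanner software's ratio. Mast cell markers had a median of -0.56, which was 0.03 without control tumour replicate 3. Intestinal epithelium markers had a median of -0.14, but 0.12 without that array and 0.04 with the scanner software's ratio. The part of these shares in the leading genes was not tested.

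**Figure D4:**
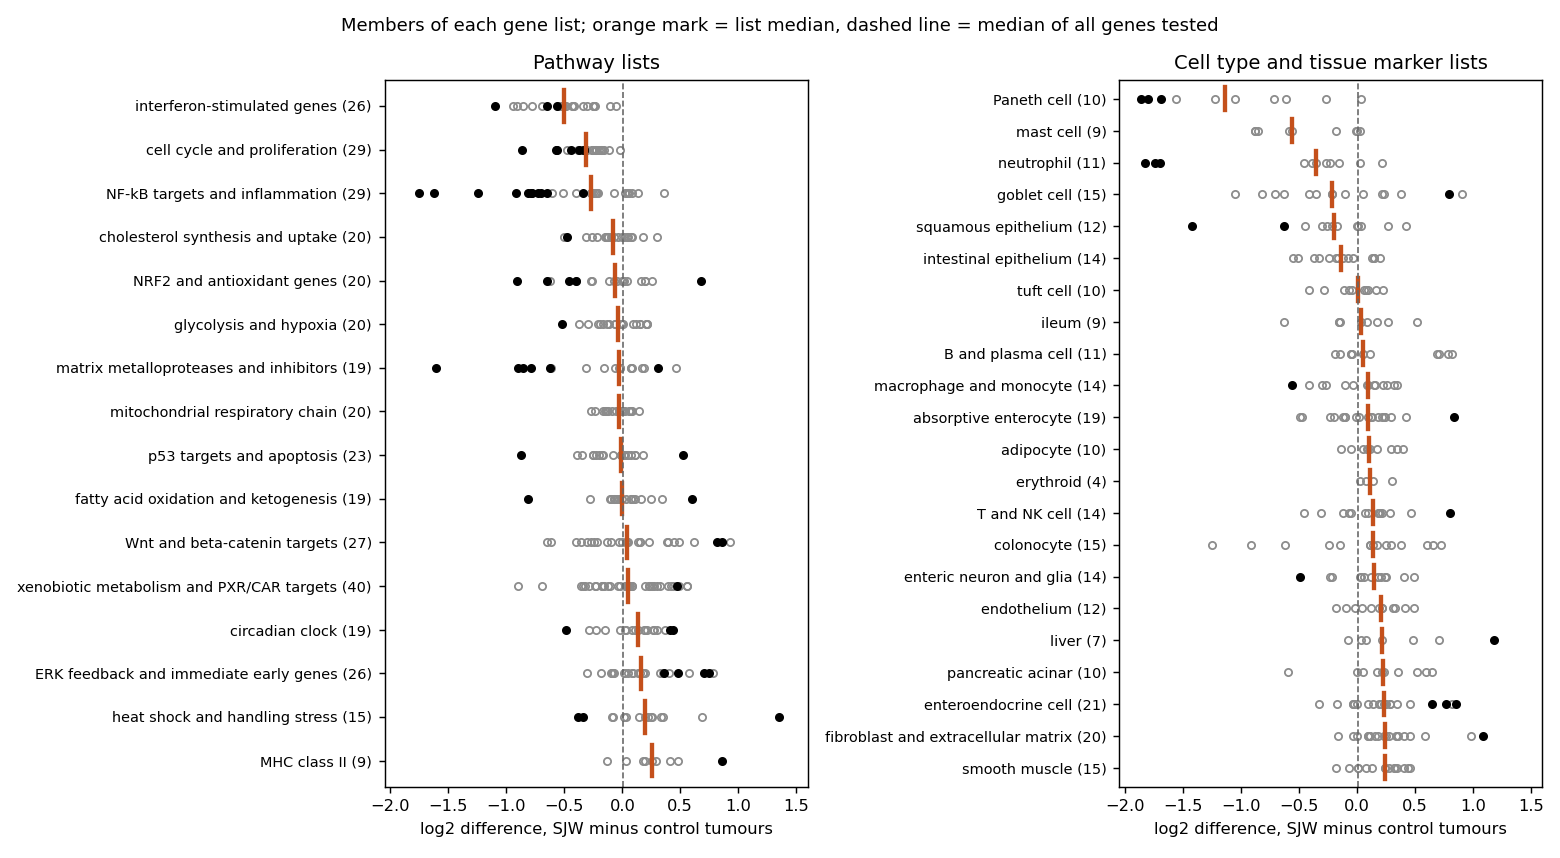
Log2 difference between SJW and control tumours (x axis) for the measured members of 16 pathway lists and 22 marker lists (rows, number of members in brackets), with filled points at an unadjusted p under 0.05 and orange marks at list medians. Paneth cell and interferon lists have the lowest medians of their panels, and filled points lie mostly left of 0 in the inflammatory, cell cycle and metalloprotease lists.

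The same diet difference was measured in non-tumour tissue, in arrays that share no sample with the tumour comparison. The Cxcl3 probe was well above background on 0 of 3 arrays in each of the 4 non-tumour groups, so no diet difference of Cxcl3 is given there. Nox1 differed by -0.03 after AOM and 0.49 after saline, Noxo1 by -0.10 after AOM and 0.25 after saline, and Cfb by 0.05 after AOM and -0.53 after saline, all with probes well above background on every non-tumour array. Of the 12 leading genes on the lower side only Mmp13 had a difference of over 0.5 after AOM, at -0.97, with its probe well above background on 2 of 3 SJW and 3 of 3 control arrays, and of the 12 on the higher side 0 did. The difference between the diet effects of tumours and of non-tumour tissue after AOM was tested for all genes in the same limma fit. None passed (0%), the smallest limma adjusted p was 0.9998, and 1079 genes had an unadjusted p under 0.05 (4.14%). Among the 5 smallest p on the lower side was that of Cxcl3, whose value is not given because its probe was not well above background on any of the 6 AOM arrays. The others were those of Cfb at -1.23 ± 0.25, Noxo1 at -0.94 ± 0.23, Kcne3 at -1.23 ± 0.32 and the kinase Alpk1 at -0.82 ± 0.22. On the higher side they were those of Ncald at 0.99 ± 0.21, Tsc22d1 at 1.19 ± 0.26, the metallothionein Mt3 at 2.80 ± 0.62, the BMP inhibitor Smad6 at 0.73 ± 0.17 and Myo1e at 0.93 ± 0.21. The tumour arrays lay on other slides than the non-tumour arrays and were scanned on another day, so tissue and slide cannot be told apart in this contrast. Since the leading genes were chosen in tumours, a smaller value in other tissue is not evidence of a difference. The genes with the smallest p of this contrast were chosen on it, so their values are a description too.

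Mt3 had log2 ratios of 1.38, 1.26 and 1.40 in SJW tumours, against 0.67, -1.24 and 0.09 in control tumours. Its level was below the pool in non-tumour tissue of both diets after AOM, at a mean of -2.37 in SJW and -1.08 in control mice. The order of the diets was opposite in the 2 tissues, but Mt3 was named for its small unadjusted p in the test of that difference. No gene passed that test, and the limma adjusted p of Mt3 in tumours was 0.592, so the order is a description.

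**Figure D5:**
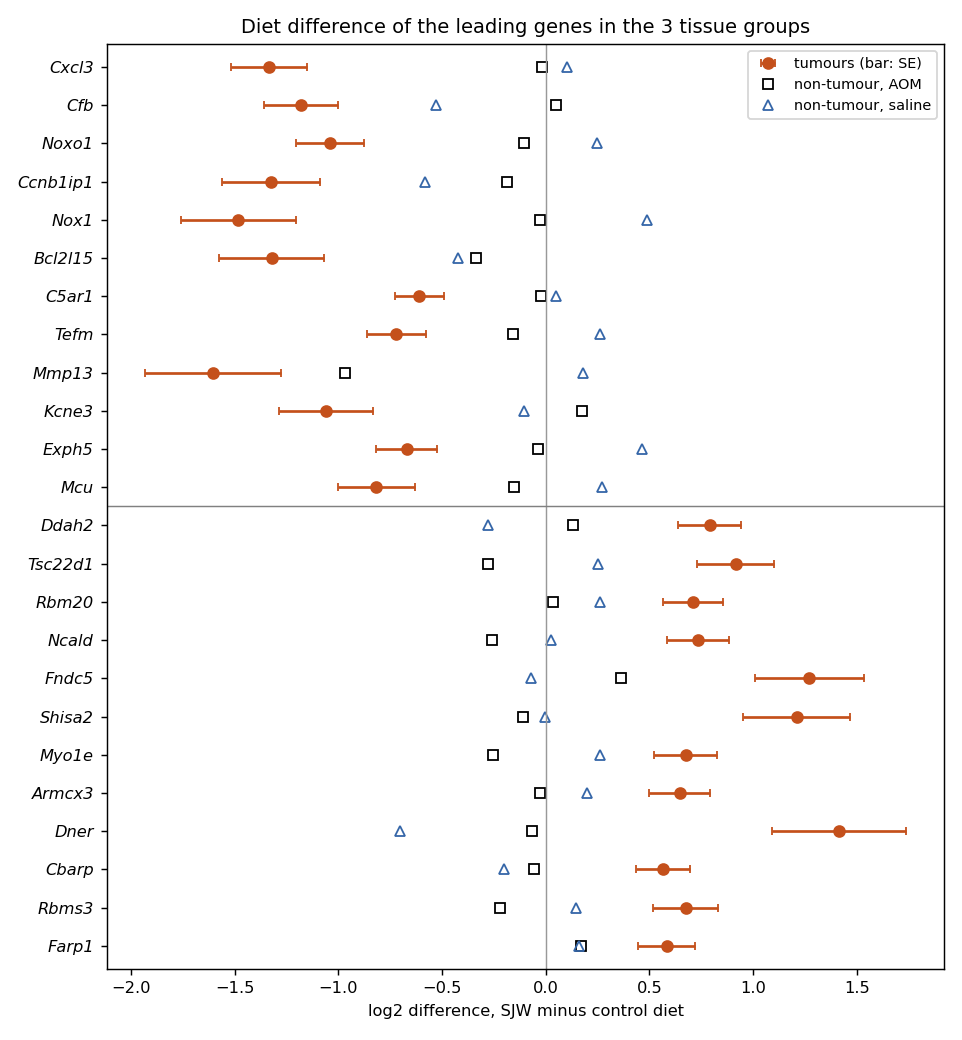
Log2 difference between SJW and control diet (x axis) of the 24 leading genes (rows) in tumours (filled circles with SE), in non-tumour tissue after AOM (squares) and in non-tumour tissue after saline (triangles). The tumour values lie farther from 0 than the AOM values in all 24 genes, which were chosen on the tumour values, and the non-tumour points of Cxcl3 come from a probe not well above background there.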

How the data were processed

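RNA of 18 mouse samples was hybridised in red beside pooled RNA in green on Agilent 2-colour arrays, with 3 arrays in each of 6 groups taken from the sample titles. Per the file headers, spots were extracted with Agilent Feature Extraction 10.10.1.1 (protocol GE2_1010_Sep10), which deposited an intensity for each spot and a log10 ratio of red over green after its own background and dye correction. The deposited value table holds log2 ratios. Its columns matched the scanner ratios in direction and scale (r of 0.9955 to 1, slopes of 0.9998 to 1.003), and they were not centred, with medians of 0.183, 0.125 and 0.157 for SJW tumours, 0.158, 0.126 and 0.342 for control tumours, and -0.0322 to 0.226 for the other 12 arrays.

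Median spot intensities, used because no mean was among the columns, were corrected with normexp (offset 50) and loess in limma 3.58.1 (R 4.3.3; package data.table, version 1.17.8). Control spots and outlier flags were left out, spots of a probe averaged, and 34081 of 41174 probes kept whose red signal was well above background on each of the 3 arrays of at least 1 group. Symbols were assigned by matching the RefSeq transcript given for a probe to RefSeq gene records, with 27050 probes with 1 symbol, 0 with several and 14124 with none. The brightest probe stood for a gene, and a probe with no symbol counted as a gene of its own (9274 of the 26073 tested). One fit of the 6 group means left 12 residual degrees of freedom, and p-values were adjusted by the Benjamini-Hochberg method over all genes with a threshold of 0.05. Each SE, interval and p is thus from the spread pooled over the 6 groups, not from the tumour arrays alone. For a gene that varies more among tumours than in the other groups, the SE is smaller than the tumour arrays alone would give. The fit was also run on simulated data, in which a gene had the same spread in all groups and the added changes were larger than most differences given here. That run does not show how the fit does with smaller differences or unequal spread. Where a label does not name separate animals, p-values measure the spread between these samples.

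Named genes were the 12 lower and 12 higher with the smallest p among genes with non-overlapping groups, well above background on all 6 tumour arrays, since 0 passed. To these were added up to 2 genes of each of 38 lists, the 5 lower and 5 higher of the interaction, and 12 genes named in every case, which were Fos, Mki67, Lgr5, Axin2, Myc, Cyp3a11, the cytokines Il6, Tnf and Il1b, and Nos2, Ptgs2 and Lcn2. The members and lists were chosen with earlier results of these data known, and genes named beyond the rule were chosen after their values were seen. Alternatives were other normalizations, filters, blocks and variance models, and each array left out.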

Additional observations from a re-analysis of the deposited data

How the results depend on the processing

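The 0 calls in tumours were repeated with slide as a block, with only the groups compared in the fit, with median centring, the scanner software's ratio, the deposited table, the red channel alone, no filter on dim probes and the mean of a gene's probes. With only the groups compared in the fit, 1141 genes had an unadjusted limma p under 0.05 in tumours, against 1565 in the main fit. With median centring there were 571. There was 1 call with trend and robust variances and 1 among probes well above background on all arrays compared, in both cases Cxcl3 (limma adjusted p = 0.0346 and 0.0478, in a range over the alternatives of 0.0100 to 1). There were 4 calls without non-uniform spots, Cxcl3 among them. Leaving out single arrays gave 0 to 8 calls in tumours, with 8 without control tumour replicate 1, 6 without SJW tumour replicate 3, 3 without control tumour replicate 2 and 1 without control tumour replicate 3 or SJW tumour replicate 2. Non-tumour tissue after AOM had 0 calls under every setting run. After saline there were 71 with slide as a block, 3 without non-uniform spots, 2 with the scanner ratio, 2 with the deposited table and 1 with trend and robust variances, and leaving out single arrays gave 0 to 291 (291 without control saline replicate 3, 204 without SJW saline replicate 1). The interaction had 2 calls without non-uniform spots and 0 to 1 without single arrays. With the replicate block there were 0 calls in each comparison. Residuals of same-numbered SJW and control tumours correlated at -0.16, 0.0107 and 0.137, and those of tumours with unlike numbers at -0.186 to 0.23. With 3 arrays a group, these values cannot show whether the numbers pair the samples. Of 113 named genes, 103 kept their sign under every alternative. Cyp3a11 was reversed at -0.009887 with the scanner ratio and -0.009887 in the deposited table, at -0.04226 without SJW tumour replicate 2 and at -0.03761 without SJW tumour replicate 3, in a range of -0.04226 to 0.2422 without single arrays. Tef was -0.09015 in the deposited table. Ndufv1 was 0.02591 and Il25 0.1315 in the red channel alone, and Synpo2 was -0.05701 among probes well above background on all arrays compared. Leaving out single tumour arrays reversed 5 more genes. Hba-a1 ranged over -0.1794 to 0.7102 and was reversed without SJW replicate 2 and without control replicate 2 (-0.008163). Myc (-0.5234 to 0.1119) and Slc4a1 (-0.02894 to 0.232) were reversed without control replicate 3, Krt19 (-0.4615 to 0.0101) without SJW replicate 1, and Fos (-0.03701 to 0.5889) without SJW replicate 2 and without SJW replicate 3 (-0.009154). The cause of these shifts was not tested. With a median standard error of a difference of 0.182 and 3 arrays a group, small differences are out of reach, and signal over background of the tumour arrays was 4.86 to 6.55 in SJW and 5.82 to 6.25 in control tumours.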

Other observations

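Whole gene families around the leading genes were looked at after their values were seen, and their counts are a description. Of 14 measured CXC chemokines, 10 were lower in SJW tumours, 6 of them at an unadjusted p under 0.05 and 0 higher at that level, with a median difference of -0.40. The 6 were Cxcl3, Cxcl1, Cxcl2, Cxcl5, Cxcl9 and Cxcl16. Cxcl5, another ligand of Cxcr2, had log2 ratios of 1.45, 2.38 and 3.57 in SJW tumours, against 4.41, 4.24 and 3.65 in control tumours, so that SJW replicate 3 lay just below the lowest control array. Cxcl16, which binds the chemokine receptor Cxcr6, had log2 ratios of 0.20, 0.09 and 0.25 in SJW tumours, against 0.58, 0.56 and 0.64 in control tumours, a small difference of -0.42 ± 0.18 with arrays close together in both groups. Cxcl14, a chemokine of resting epithelium, lay the other way, with 1.84, 2.03 and 2.18 in SJW tumours against 1.75, 1.47 and 1.29 in control tumours. Of 19 measured CC chemokines, 11 were lower, and Ccl20 was the only member at an unadjusted p under 0.05.

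The NADPH oxidases and the complement system did not share the values of their leading members. Of 13 measured oxidase genes and partners, 7 were lower with a median of -0.03, and Nox1 and Noxo1 were the 2 at an unadjusted p under 0.05. Duoxa2, which matures the epithelial oxidase Duox2, had log2 ratios of 2.25, 3.45 and 3.02 in SJW tumours, against 3.39, 3.01 and 5.11 in control tumours, and the groups overlapped. Of 29 measured complement genes, 16 were lower with a median of -0.03, and 3 were lower at an unadjusted p under 0.05, namely Cfb, C5ar1 and Cfp. C3, the central component, differed by -0.05 ± 0.23.

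Several of the largest differences rested on 1 array. Folh1, a folate hydrolase, had log2 ratios of -0.85, 4.23 and -1.21 in SJW tumours, against -1.27, -1.03 and -2.10 in control tumours. Krt78, a keratin of stratified epithelium, had -0.16, 4.16 and -0.26 in SJW tumours, against -0.04, -0.31 and -0.94 in control tumours. Abtb2 and Cbln2 had the same shape, with 3.40 and 3.34 in SJW tumour replicate 2. Mup1, a major urinary protein made in liver, was higher in SJW tumours with groups that did not overlap, at -0.76, -2.90 and -1.53 in SJW tumours, against -3.23, -3.42 and -4.82 in control tumours. All its values were below the pool, and probes may not tell the members of its family apart.

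The sign of a difference was opposite on slide 1 and slide 2 in 47.9% of all genes, in 28 of the 109 genes (25.7%) that differed by at least 1, and in 64 of the 1565 genes (4.09%) with an unadjusted p under 0.05. The differences on the slides make up the difference that was tested. A lower share in genes chosen by size or by p thus follows in part from the choice, and does not show that slides repeat each other.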
